A study of Mus musculus with 4 samples.

Results

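The genes of canonical Polycomb repressive complex 1 (PRC1) were examined in mouse embryonic stem (ES) cells in which Mtf2 was targeted by RNA interference. The members were Cbx2, Cbx6, Cbx7, Cbx8, Pcgf2, Bmi1, Phc1, Phc2 and Phc3, and every array feature annotated to 1 of these 9 symbols was taken, which gave 18 of the 45220 features on the array. All cells were of the E14 ES line and had been transfected with a pSuper plasmid, kept for 2 days in puromycin and harvested as total RNA. The 2 arrays of the control arm are the empty vector, pSuper (1 array), and pSuper with a hairpin against luciferase (1 array), and those of the Mtf2 RNAi arm are pSuper with Mtf2 hairpin 1 (1 array) or Mtf2 hairpin 3 (1 array). The numbers 1 and 3 close the plasmid names in the labels and were taken to name hairpins, and the design text speaks of 4 independent experiments without saying whether a plasmid was repeated. With 1 array for each plasmid, plasmid and array cannot be told apart within an arm, and a p-value here reflects no more than the scatter of these 4 arrays, which may be technical. Both controls carried a plasmid of the same backbone and the same selection, and untransfected cells were not analysed here.

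Canonical PRC1 is built on a RING-type ubiquitin ligase, Ring1 or Rnf2, together with a Pcgf partner (Pcgf2 or Bmi1), a Cbx protein and a Phc protein. The chromodomain of the Cbx subunit binds H3K27me3, the histone mark placed by PRC2, and the SAM domain of the Phc subunit links complexes to each other. Mtf2 is an accessory subunit of PRC2 that binds CpG-rich DNA, so it acts upstream of the mark that canonical PRC1 reads. In mouse ES cells Cbx7 is known as the main Cbx subunit, and Cbx2 and Cbx8 are known as genes that it helps to repress until the cells differentiate. The Cbx genes are clustered: in the RefSeq annotation of the mouse assembly GRCm38.p6, Cbx2 and Cbx8 are neighbours on chromosome 11 with 0 protein-coding genes between them, and Cbx6 and Cbx7 lie on chromosome 15 with 1 gene, Apobec3, between them.

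Because Mtf2 binds CpG-rich DNA, the promoters of 4 members are shown with their CpG dinucleotides in capitals. Cbx6, Cbx8 and Bmi1 are shown as genes with at least 2 tested features, all with a difference of the same sign and at least 1 with arms that did not overlap, and Cbx7 is shown as the ES cell subunit whose arms overlapped. The sequences are the 250 bases before the transcription start, 5′ to 3′ on the strand of the gene, from RefSeq on GRCm38.p6. Cbx6 is at chr15:79834334-79834583 (minus strand), Cbx7 at chr15:79932647-79932896 (minus strand), Cbx8 at chr11:119040914-119041163 (minus strand) and Bmi1 at chr2:18676768-18677017 (plus strand).
Cbx6: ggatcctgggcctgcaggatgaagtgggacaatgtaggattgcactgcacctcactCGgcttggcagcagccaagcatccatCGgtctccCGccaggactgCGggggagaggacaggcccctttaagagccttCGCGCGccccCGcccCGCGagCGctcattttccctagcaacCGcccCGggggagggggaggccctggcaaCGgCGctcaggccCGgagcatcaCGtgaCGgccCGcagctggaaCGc
Cbx7: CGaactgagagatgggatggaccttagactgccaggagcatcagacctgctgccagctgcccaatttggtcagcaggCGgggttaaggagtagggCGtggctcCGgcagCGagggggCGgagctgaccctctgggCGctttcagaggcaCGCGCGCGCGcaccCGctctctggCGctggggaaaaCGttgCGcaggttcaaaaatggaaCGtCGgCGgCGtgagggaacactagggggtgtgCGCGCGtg
Cbx8: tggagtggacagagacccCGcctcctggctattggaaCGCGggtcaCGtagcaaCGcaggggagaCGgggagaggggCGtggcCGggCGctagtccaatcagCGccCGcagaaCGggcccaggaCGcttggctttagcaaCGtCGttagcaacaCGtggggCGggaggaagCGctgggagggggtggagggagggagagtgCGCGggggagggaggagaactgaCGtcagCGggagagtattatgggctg
Bmi1: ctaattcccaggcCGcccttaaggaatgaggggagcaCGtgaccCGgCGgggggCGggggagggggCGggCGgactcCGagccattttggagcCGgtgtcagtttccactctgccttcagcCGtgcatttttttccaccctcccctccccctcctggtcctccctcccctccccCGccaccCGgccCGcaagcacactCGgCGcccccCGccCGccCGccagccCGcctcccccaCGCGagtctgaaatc
The motif counted was CG, which reads the same on both strands. These windows held 20 CpGs for Cbx6, 23 for Cbx7, 22 for Cbx8 and 21 for Bmi1, against a median of 6 over 32851 mouse promoter windows of the same length. Windows with at least as many CpGs made up 18.0% of all windows for Cbx6, 13.3% for Cbx7, 14.8% for Cbx8 and 16.4% for Bmi1. A promoter entry was found for 8 of the 9 members. Pcgf2 had 5 CpGs, Phc1 8 and Phc3 12, and the 3 annotated Phc2 promoters had 13, 1 and 34. Arms also did not overlap for the single tested feature of Phc3 and for features 9739 (lower) and 18314 (higher) of Phc1. Both genes had fewer CpGs than the 4 promoters shown. Phc2, which has the window with 34 CpGs, had overlapping arms on its only feature. Cbx6, Cbx8 and Bmi1 were picked by their values on these arrays, so a link between CpGs and the differences was not tested.

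Values are deposited intensities brought to the same 75th percentile (23.0 units) on every array and raised to a floor of 1 unit where lower, and the median feature tested stood at 6.86 units. Each difference subtracts the control mean from the Mtf2 RNAi mean on the log2 scale, and its standard error (SE) is that of a limma fit over the 35102 features above the floor on at least 1 array. Brightness also depends on the probe, so levels are not compared between features beyond a rough placing against the median feature. Mtf2 itself, the target, read below both controls on both hairpin arrays in 3 of its 4 features, at 0.474 to 0.583 of the control level, while its brightest feature had overlapping arms (difference 0.19, SE 0.71). The empty-vector array carried 1659 positions whose neighbours deviated by over 0.5 log2, against at most 6 on each of the other arrays. None of the 18 member features lay at such a position on any array. Over all tested features the empty-vector array also correlated less with the other arrays (0.945 to 0.949) than these did with each other (0.976 to 0.979).

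No canonical PRC1 feature passed limma's test (0 of 16 tested at an adjusted p under 0.05, smallest adjusted p = 0.868), and over all features the count was also 0 (0%). The other 2 features, 33562 and 35527, belong to Phc3 and never exceeded the floor, so they were not tested. An unadjusted p under 0.05 was reached by 1 member feature, that of Cbx6 described below, where 4.18% of all features (1467) reached it. That count over all features was higher with any array left out, at 2665 without the empty vector, 4417 without the luciferase array, 2374 without hairpin 1 and 2883 without hairpin 3. Of the 16 features, 8 read higher and 8 lower with Mtf2 RNAi (49.2% of all features were higher). Arms did not overlap for 7 of the 16 features, against 32.2% of all features: 3 in the higher direction, where the share of all features was 14.7%, and 4 in the lower, where it was 17.5%. The median difference was 0.02 over the member features and -0.01 over all features. An exact permutation test of 2 arrays against 2 could not give a two-sided p below 0.333. In bulk RNA, fewer cells of a type and less RNA per cell cannot be told apart.

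**Figure D1:**
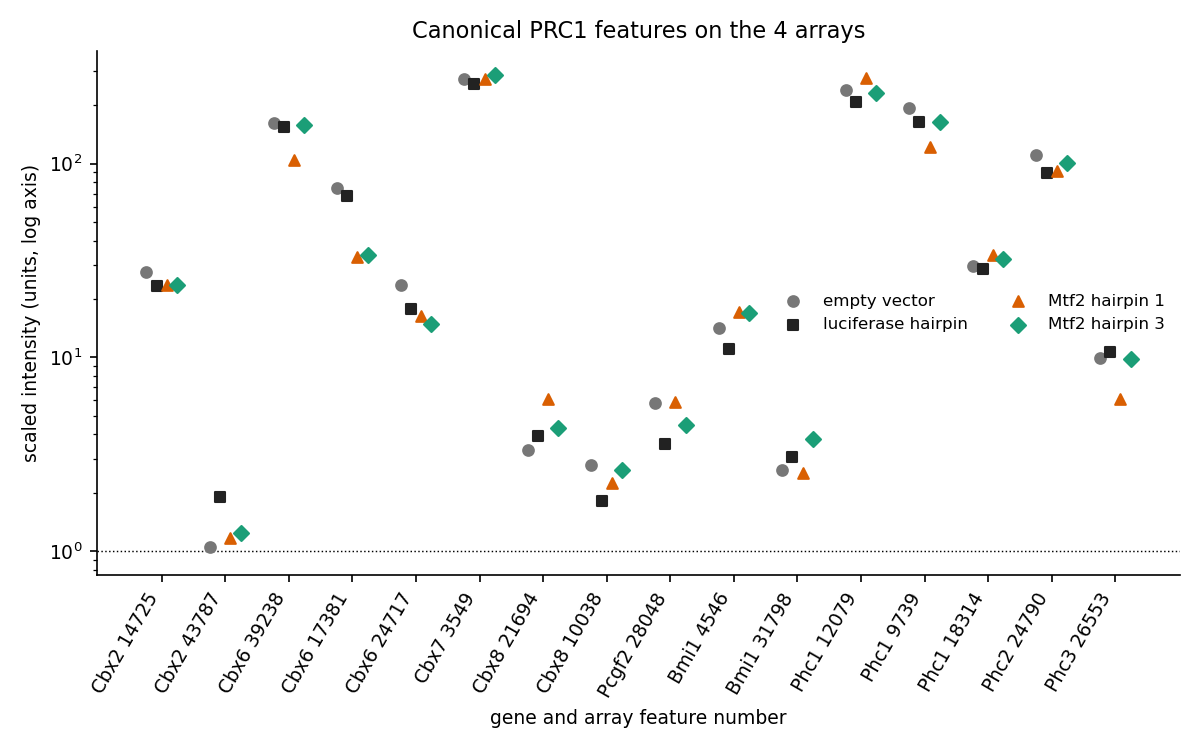
Scaled intensity (log axis, in units) of the 16 tested canonical PRC1 features on each of the 4 arrays, 1 point per array, with the floor of 1 unit as a dotted line. Cbx6 feature 17381 is the place where both Mtf2 hairpin arrays (32.8 and 33.7 units) lie far below both controls (74.9 and 68.2 units), while the points of Cbx7 feature 3549 lie together between 256 and 288 units.

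Among the Cbx subunits, which carry the chromodomain, Cbx6 held the largest difference of the members. Its feature 17381 read 74.9 units in empty-vector cells and 68.2 in luciferase-hairpin cells, but 32.8 under Mtf2 hairpin 1 and 33.7 under Mtf2 hairpin 3. Both control arrays were thus close to each other, both hairpin arrays were close to each other, and the arms were separate. The difference was -1.11 log2 (SE 0.22, 95% interval -1.67 to -0.54), or 0.465 of the control level, with an unadjusted p = 0.0039 and a limma adjusted p = 0.868. Such a gap, with both hairpin arrays at least 1 log2 unit under both controls, was found in 73 features in all (0.208%).

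The other Cbx6 features differed less. Feature 39238, the brightest, read 162 and 154 units in the empty-vector and luciferase controls, 105 with hairpin 1 and 159 with hairpin 3. Hairpin 1 alone stood apart there, and the difference of -0.29 (SE 0.28, limma adjusted p = 0.871) became 0.011 without the hairpin 1 array and -0.59 without the hairpin 3 array. Feature 24717 read 23.8 and 17.7 units in the controls against 16.4 and 14.9 with hairpins 1 and 3. Its arms were separate, with a gap smaller than the distance between its controls (-0.39, SE 0.30, limma adjusted p = 0.868). Averaged over its 3 features, Cbx6 read -0.60 (SE 0.21, limma adjusted p = 0.877, unadjusted p = 0.0367).

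Array position moved with the values of Cbx6 features 17381 and 24717 but not with those of feature 39238. Positions rest on rows of 85 features inferred from the data. Features around number 17381 on the array, which belong to other genes, had median deviations of 0.33 log2 in empty-vector cells, 0.17 in luciferase-hairpin cells, -0.12 under hairpin 1 and -0.20 under hairpin 3. The neighbours therefore read -0.41 as a difference between arms, and 0.120% of all tested positions had a difference as low. With this local median taken off each array, feature 17381 read -0.70 (SE 0.22, limma adjusted p = 0.886). Neighbours of feature 24717 read -0.21, and its own difference after the correction was -0.18 (SE 0.28). Feature 39238 had neighbours at -0.0040 and kept a difference of -0.29 after the correction. The part of array position in the Cbx6 differences was not tested.

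Cbx7, the main Cbx subunit of ES cells, read 274 units in empty-vector cells, 256 in luciferase-hairpin cells, 273 under hairpin 1 and 288 under hairpin 3. The 4 arrays lay close together and the arms overlapped. Its difference of 0.08 (SE 0.21, limma adjusted p = 0.933) had a 95% interval from -0.46 to 0.63, and it turned to -0.0053 under quantile normalization and to -0.15 with the local median taken off.

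Cbx2, whose protein compacts chromatin as well as binding the mark, was measured by 2 features. Feature 14725 read 27.6 and 23.2 units in the empty-vector and luciferase controls and 23.6 and 23.5 with hairpins 1 and 3. The empty vector was the highest array and the other 3 lay within 0.4 units of each other, so the difference of -0.10 (SE 0.25, limma adjusted p = 0.933) became 0.020 without the empty-vector array and -0.23 without the luciferase array. Feature 43787 was near the floor at 1.04 to 1.89 units.

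Cbx8, the neighbour of Cbx2 and another reader of the mark, was dim. Feature 21694 read 3.32 units in empty-vector cells, 3.91 in luciferase-hairpin cells, 6.07 under hairpin 1 and 4.30 under hairpin 3. The arms were separate, although hairpin 3 lay close to the luciferase control. The difference was 0.50 (SE 0.37, limma adjusted p = 0.868). It was 0.75 without the hairpin 3 array and 0.25 without the hairpin 1 array, and with 16 units added before the log it was 0.11. Its other feature, 10038, annotated to another cDNA record of the gene, read between 1.81 and 2.78 units with overlapping arms (0.11, SE 0.35).

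**Figure D2:**
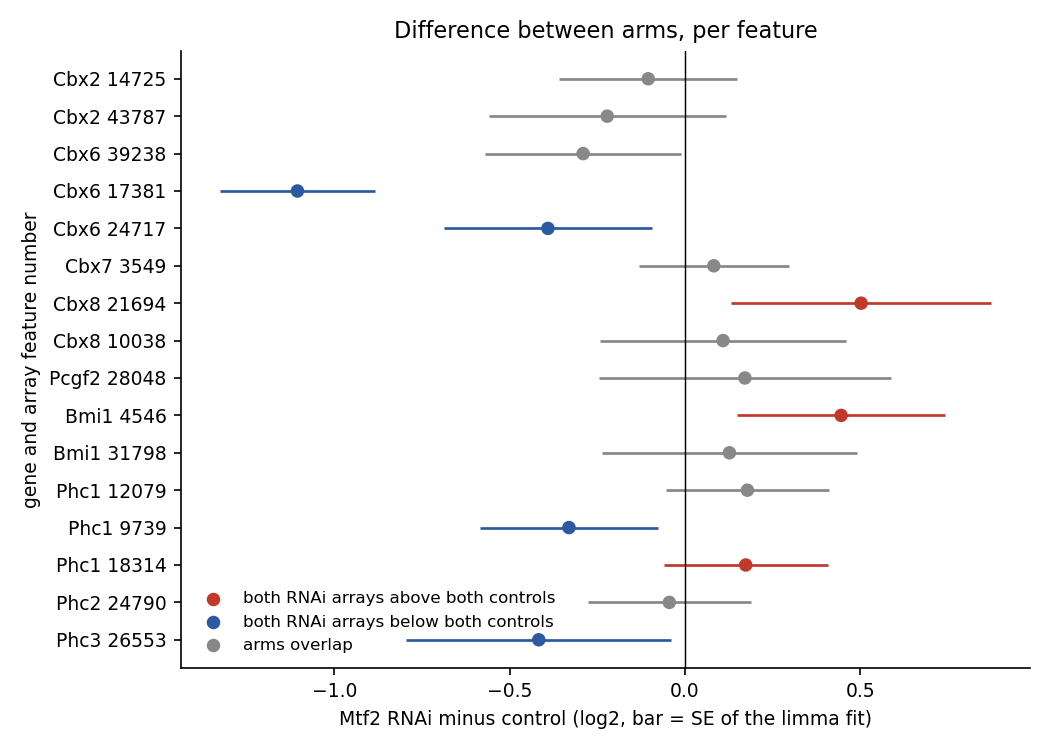
Difference between the Mtf2 RNAi and control arms (log2) for each tested canonical PRC1 feature, with bars of 1 SE of the limma fit and colour for whether the arms overlap. Cbx6 feature 17381 lies at -1.11 and the other 15 features lie between -0.42 and 0.50.

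The Pcgf partners Pcgf2 and Bmi1 are alternative partners of the RING ligase. Bmi1, known for repressing the Cdkn2a locus, read 14.1 units in empty-vector cells, 11.0 in luciferase-hairpin cells, 17.1 under hairpin 1 and 16.9 under hairpin 3 on feature 4546. Both hairpin arrays lay above both controls and lay within 0.3 units of each other. The difference was 0.45 log2 (1.36-fold, SE 0.30, 95% interval -0.31 to 1.20, limma adjusted p = 0.868). It was 0.63 without the empty-vector array and 0.26 without the luciferase array, so the size followed which control was used. Neighbours on the array read 0.13 as a difference between arms, and with the local median taken off Bmi1 read 0.32. With 16 units added before the log it read 0.21. Feature 31798 of Bmi1 was dim and had overlapping arms, at 2.62 and 3.07 units in the controls and 2.54 and 3.77 with hairpins 1 and 3 (0.13, SE 0.36).

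Pcgf2 had 1 feature, number 28048, also below the median feature. It read 5.83 units in empty-vector cells, 3.57 in luciferase-hairpin cells, 5.91 under hairpin 1 and 4.47 under hairpin 3. Empty vector and hairpin 1 were high, luciferase and hairpin 3 were low, and the arms overlapped. The difference of 0.17 (SE 0.42, limma adjusted p = 0.933) became -0.18 without the luciferase array and -0.03 without the hairpin 1 array, and it was 0.52 without the empty-vector array.

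The Phc genes encode the Polyhomeotic subunits, which polymerise through the SAM domain. Phc1 was measured by 3 features, which did not lie on the same side. Feature 12079 read 239 and 208 units in the empty-vector and luciferase controls and 278 and 230 with hairpins 1 and 3, with overlapping arms (0.18, SE 0.23). The difference was 0.043 without the hairpin 1 array, 0.079 without the luciferase array, 0.31 without the hairpin 3 array and 0.28 without the empty-vector array. Feature 18314 read 29.7 and 28.6 units in the controls and 33.7 and 32.0 with the hairpins, and its arms were separate in the higher direction (0.17, SE 0.23). Feature 9739 read 193 and 163.5 units in the controls, 122 with hairpin 1 and 163.3 with hairpin 3. There the hairpin 3 and luciferase arrays were level and hairpin 1 alone was low (-0.33, SE 0.26). The arms of this feature counted as separate in the lower direction, though hairpin 3 minus luciferase was only -0.0011 log2. All 3 had a limma adjusted p of 0.868 or above, and their mean was 0.01 (SE 0.20).

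Phc2 read 110 units in empty-vector cells, 89.0 in luciferase-hairpin cells, 91.8 under hairpin 1 and 101 under hairpin 3 on its only feature, 24790. Both hairpin arrays lay between the 2 controls, and the difference was -0.04 (SE 0.23, 95% interval -0.64 to 0.55, limma adjusted p = 0.968). It turned to 0.11 without the empty-vector array, to 0.023 without the hairpin 1 array and to 0.012 with the local median taken off.

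Phc3 read 9.94 units in empty-vector cells, 10.7 in luciferase-hairpin cells, 6.07 under hairpin 1 and 9.81 under hairpin 3 on feature 26553. This feature is annotated to a cDNA record other than a RefSeq transcript. The RefSeq feature of Phc3, 33562, never exceeded the floor, nor did feature 35527. Hairpin 1 was low and the other 3 arrays were close, and although both hairpins lay below both controls, the difference of -0.42 (SE 0.38, limma adjusted p = 0.870) was -0.07 without the hairpin 1 array and -0.76 without the hairpin 3 array. Neighbours on the array read -0.20, and Phc3 read -0.22 with the local median taken off.

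**Figure D3:**
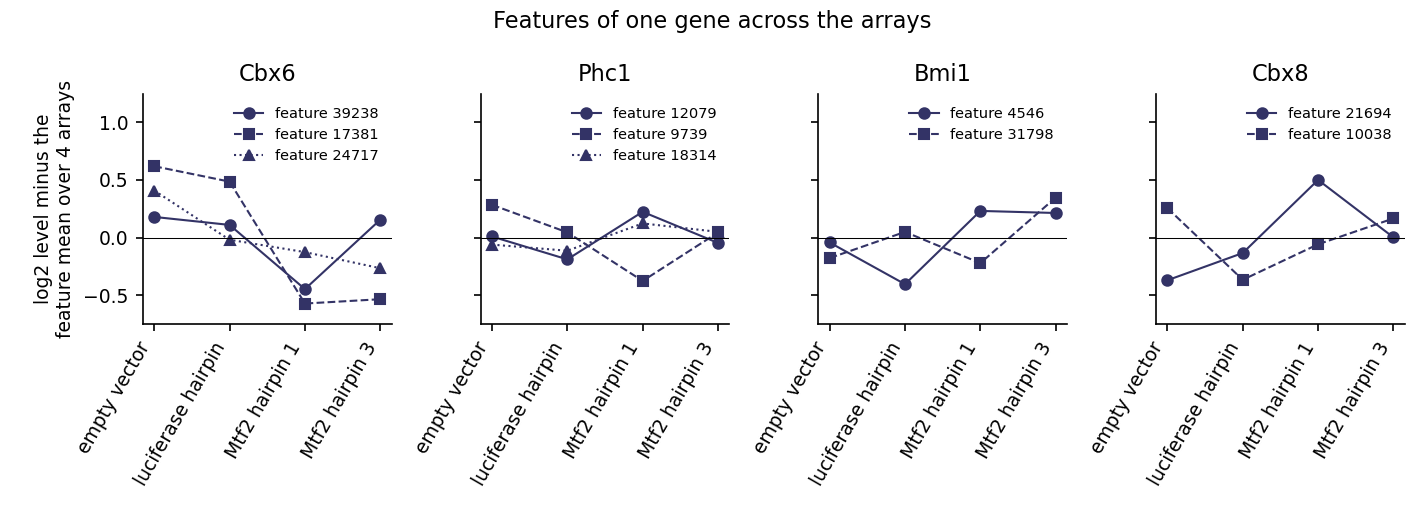
Log2 level of each tested feature of Cbx6, Phc1, Bmi1 and Cbx8 on the 4 arrays, after subtraction of its own mean, with lines that join points of 1 feature and imply no order of the arrays. The 3 Cbx6 features are all low under hairpin 1 and part under hairpin 3, and Phc1 feature 9739 is low under hairpin 1 where the other 2 Phc1 features are high.

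For 6 of the 16 features the 95% interval of the difference lay within 1 log2 unit of 0 on both sides. They were Cbx7 feature 3549, Cbx2 feature 14725, Phc2 feature 24790 and all 3 features of Phc1. For these a change of 2-fold lay outside the interval, which covers only the spread between these arrays. Cbx6 feature 17381 was the 1 feature whose interval did not contain 0.

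Within each arm the canonical PRC1 genes varied less than 2-fold. Hairpin 3 minus hairpin 1 ran from -0.50 (Cbx8 feature 21694) to 0.69 (Phc3 feature 26553), and 0 of the 16 features were 2-fold apart, against 7.9% of all features. The luciferase hairpin minus the empty vector ran from -0.71 (Pcgf2) to 0.86 (Cbx2 feature 43787), again with 0 of 16 features 2-fold apart, against 9.96% of all features. With the deviating positions left out, where no member feature lay, that share was 7.99%. In 12 of the 16 features the larger of these 2 distances was at least as large as the difference between arms, the exceptions being Cbx6 feature 17381, Cbx8 feature 21694, Bmi1 feature 4546 and Phc1 feature 18314. The same share was not taken over all features, so this count is not read as a trait of these genes. With 1 array for each plasmid the distances within an arm carry no test.

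Each hairpin was also set against a control of its own, so that no array was shared. Hairpin 1 was set against the empty vector and hairpin 3 against the luciferase hairpin, and the 2 differences were both positive for 5 member features, both negative for 4 and opposite for 7. Over all features, 21.7% were positive and 23.9% negative in both. For Cbx6 feature 17381 the 2 values were -1.19 and -1.02, and for Bmi1 feature 4546 they were 0.27 and 0.62. Cbx8 feature 21694 read 0.87 and 0.14, and Phc3 feature 26553 read -0.71 and -0.12, so in this pairing it was hairpin 1 that stood away from its control. The choice of pairing is arbitrary. With hairpin 1 against the luciferase hairpin and hairpin 3 against the empty vector, 4 member features were positive in both, 5 negative in both and 7 opposite. Cbx6 feature 17381 then read -1.06 and -1.15, Bmi1 feature 4546 read 0.64 and 0.26, Cbx8 feature 21694 read 0.63 and 0.37, and Phc3 feature 26553 read -0.81 and -0.02. The larger of the 2 Bmi1 values thus belonged in either pairing to the hairpin set against luciferase.

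**Figure D4:**
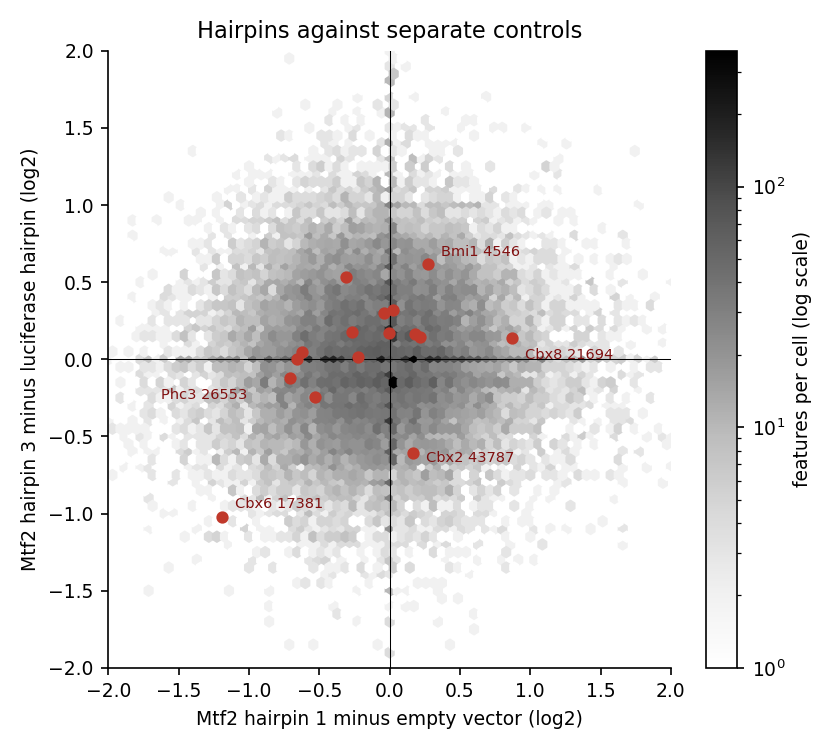
Log2 difference of hairpin 1 from the empty vector (horizontal) and of hairpin 3 from the luciferase hairpin (vertical), with the 16 canonical PRC1 features in red over the density of the 35102 tested features in grey, of which 1348 lie beyond the axes. Cbx6 feature 17381 lies at -1.19 and -1.02, outside the dense centre that holds most members.

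The remaining genes of the pathway were described by their brightest feature, and none passed limma's test. Among 24 tested genes of the RING ligases, variant PRC1 and further PRC1 partners, 12 were higher and 12 lower, and the median stood at 0.002. The ligases themselves, which ubiquitinate histone H2A, read 0.23 (Rnf2, SE 0.24) and -0.12 (Ring1, SE 0.38). The lowest were Dcaf7, a WD-repeat partner of variant PRC1 (-0.86, SE 0.27), and Scml2, a Sex comb on midleg homolog (-0.44, SE 0.29). The highest were Bcorl1, a corepressor of the BCOR family (0.65, SE 0.22), and the dim Scml4 (0.48, SE 0.36). An unadjusted p under 0.05 was reached by 2 of these 24 genes, Dcaf7 and Bcorl1, where 4.18% of all features reached it.

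The PRC2 list held 11 genes without Mtf2, with 5 higher, 6 lower and a median of -0.04. The core subunit genes Eed and Suz12 were the lowest, at -0.70 (SE 0.35) and -0.59 (SE 0.24). Array position moved with the Suz12 value as it did for Cbx6 feature 17381. Neighbours of the Suz12 feature deviated by 0.41 log2 in empty-vector cells, 0.055 in luciferase-hairpin cells, -0.27 under hairpin 1 and -0.09 under hairpin 3. The part of array position in the Suz12 difference was not tested. Phf1, a Polycomb-like relative of Mtf2, read 2.19 (SE 1.59), but its feature lay among the deviating positions of the empty-vector array and was at the floor there. The next highest was Jarid2, a PRC2 cofactor, at 0.84 (SE 0.29). It was the 1 gene of the 11 with an unadjusted limma p under 0.05 (0.0335), where 4.18% of all features reached it. Neighbours of the Jarid2 feature deviated by 0.046 log2 in empty-vector cells, -0.20 in luciferase-hairpin cells, 0.22 under hairpin 1 and 0 under hairpin 3. The part of array position in the Jarid2 difference was not tested. The median of the 9 canonical PRC1 genes by their brightest feature was 0.08, with 5 higher and 4 lower.

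Textbook genes repressed by PRC1 were looked at beside its subunits. Cdkn2a, which encodes p16Ink4a and p19Arf, read 5.37 units in empty-vector cells and 5.10 in luciferase-hairpin cells, and 10.2 and 9.76 with hairpins 1 and 3. Its arms were separate and the arrays of an arm lay close together (0.93, SE 0.32, unadjusted p = 0.0329, limma adjusted p = 0.868). The Cdkn2a feature was dim, near the median feature of 6.86 units, and its difference was not recomputed with 16 units added. Of all features, 14.7% had separate arms in the higher direction. Cdkn1c, an inhibitor of cyclin-dependent kinases, read 0.70 (SE 0.35) with separate arms. Cdkn2b, the neighbour of Cdkn2a that encodes p15Ink4b, read -0.23 (SE 0.39) with overlapping arms.

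Features with an array pattern like that of Bmi1 were sought, since it had the largest difference among brightest features above the median level. The closest of 15146 other named features above that level were those of Zfp280d, Wrap53 and Aplp2, at root mean square distances of 0.010, 0.018 and 0.024 log2 over the 4 arrays after each pattern was centred. With 4 arrays such likeness is common: 201 features lay within 0.1 log2.

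The cultures showed the markers of ES cells. All 12 ES cell markers lay above the median feature by their mean over the 4 arrays, with 7 higher and 5 lower. The dim Lin28a read 6.75 units under hairpin 1, near the median of 6.86 units. Their summed level was 11957 and 9755 units in the controls and 12568 and 12156 units with hairpins 1 and 3. Bright probes weigh most in such a sum: in empty-vector cells Dppa5a gave 4993 units and Zfp42 3086. Of 11 fibroblast or feeder markers 9 were tested, and 8 of them read lower and 1 higher with Mtf2 RNAi, as Cbx6 also did. Their summed level was 912 and 720 units in the controls and 731 and 640 units with the hairpins, most of it from Vim, which ES cells also express. The defining marker Col1a1 read 8.31 and 6.45 units in the controls against 4.97 and 5.25 with the hairpins, and Postn was at the floor on 3 arrays. The part of these markers in the Cbx6 values was not tested. Trophoblast markers summed to 38.7 to 41.7 units, with Cdx2 at or near the floor. Endoderm and neural markers split 5 higher to 3 lower and 3 higher to 3 lower. The highest endoderm marker, Lamb1 (2.62, SE 2.28), lay among the deviating positions of the empty-vector array and was at the floor there. The lowest, the dim Gata4 (-1.27, SE 0.58), was at the floor under hairpin 3.

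**Figure D5:**
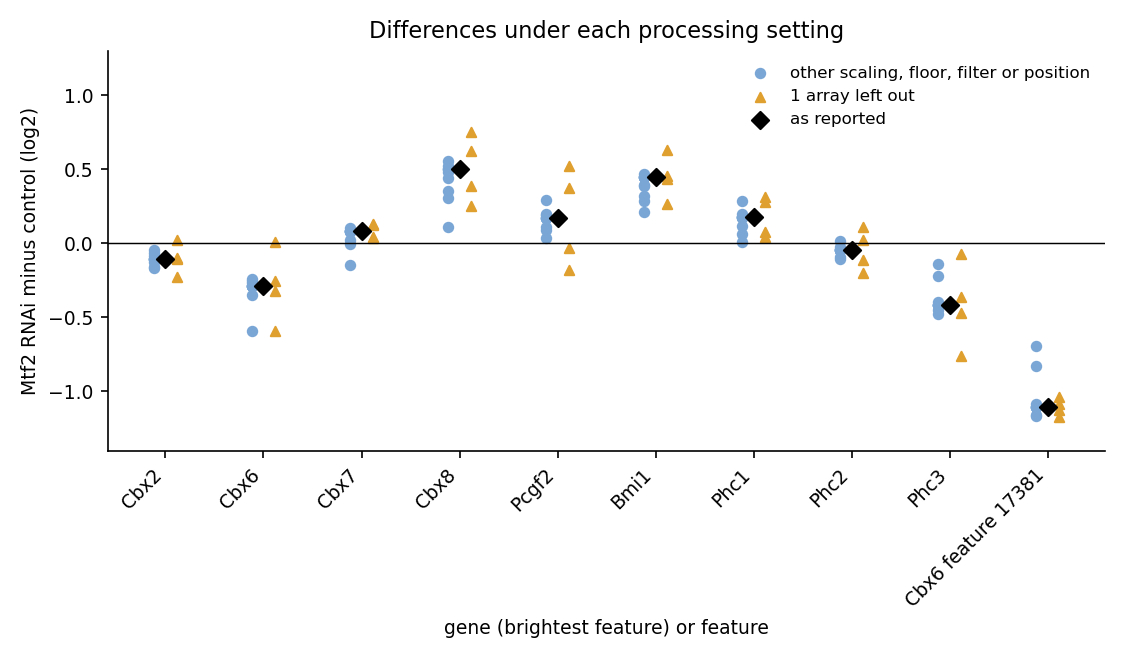
Mtf2 RNAi minus control (log2) for the brightest feature of each canonical PRC1 gene, and for Cbx6 feature 17381, as reported (black), under other scaling, floor, filter, averaging or position settings (blue) and with 1 array left out (orange). Cbx6 feature 17381 stays between -1.17 and -0.70, while the points of Cbx2, Cbx6, Cbx7, Pcgf2 and Phc2 fall on both sides of 0.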

How the data were processed

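Plasmids were transfected by lipofectamine 2000, with puromycin from 1 day later at a stated 1 mg/ml, per the labels' protocols. Per the same source, 1 ug of Trizol RNA was turned into Cy3-labelled cRNA by an Agilent Quick-Amp 1-colour kit. The authors deposited 1 linear intensity per feature and array. Between 2260 and 2879 values per array are 0 or less, so some background was already removed. How it was removed, the scanner and any normalization are not stated in the labels.

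Each array was scaled to the mean 75th percentile (22.98 units), a floor of 1 unit was set and values were put on the log2 scale. Of 45220 features, 10118 at the floor on all arrays were left out and 35102 were tested. Features were named through the platform annotation of 2016, which gave 33653 of them 1 symbol, 56 several, and does not list 11511. Arms were compared with limma 3.58.1 in R 4.3.3 (lmFit, eBayes with an intensity trend, Benjamini-Hochberg adjustment over all tested features, threshold 0.05). The procedure was also run on simulated data with independent noise of the same size for every feature. Noise on these arrays is not of that kind, so the run does not show what could be found here. Intervals are unadjusted. No array layout was used: rows of 85 features were inferred from the correlation of deviations between features 85 numbers apart (0.279 to 0.520 per array, higher than at 1 number fewer or more), and local medians use the neighbours in a square of 7 by 7. Every member feature is named. In the PRC1 partner and PRC2 lists the 2 lowest and 2 highest genes by brightest feature are named, with the ligases, the PRC1-repressed genes and single markers added by choice, and marker lists are given as counts or sums. The members and lists were chosen with earlier results of these data known. An item of the PRC1 gene list is not reported here. No detection calls were used, and the number of arrays limits the precision.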

Additional observations from a re-analysis of the deposited data

How the results depend on the processing

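The count of features past limma's adjusted p of 0.05 was 0 under every setting except 1: with no filter on features at the floor it was 36, all of them below 4 units on average and none of them a canonical PRC1 feature. Unadjusted p under 0.05 was reached by 1467 features as reported and by 2374 to 4417 with 1 array left out, the highest count without the luciferase array. The share of features 2-fold apart between hairpins 3 and 1 was 4.61% with a floor of 4 units, against 7.90%. Member features with separate arms, 3 higher and 4 lower as reported, numbered 5 and 4 without scaling and 3 and 6 with median scaling. They numbered 3 and 3 under quantile normalization and 4 and 2 after the local median correction. The shares of all features under these settings were 11.7% to 17.2% higher and 16.5% to 20.9% lower. Over the 9 genes by brightest feature and Cbx6 feature 17381, 147 alternative values were computed, of which 138 kept the sign and the side of the threshold and 9 changed sign. Quantile normalization turned Cbx7 to -0.0053. The local median correction turned Cbx7 to -0.15 and Phc2 to 0.012. With 1 array left out in turn, Cbx2 ran from -0.23 (without the luciferase array) to 0.020 (without the empty vector), Cbx6 from -0.59 (without hairpin 3) to 0.011 (without hairpin 1), Pcgf2 from -0.18 (without the luciferase array) to 0.52 (without the empty vector) and Phc2 from -0.20 (without the luciferase array) to 0.11 (without the empty vector). Without hairpin 1, Pcgf2 read -0.031 and Phc2 0.023. The 9 values of changed sign lay within 1 SE of 0. Cbx6 feature 17381 ran from -1.17 to -0.70, with a smallest limma adjusted p of 0.210, without the luciferase array. Where an array is left out, its partner is assumed to vary like the other arm. No paired analysis was possible because the only numbers in the labels are those of the Mtf2 plasmids, taken here as hairpin names. Member features below the median feature (21694 and 10038 of Cbx8, 28048 of Pcgf2, 43787 of Cbx2 and 31798 of Bmi1) are limited by their signal over background. The same holds for Phc3 feature 26553, which lay near the median feature.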

Other observations

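Features of 1 gene often differed on these arrays. Over 1532 genes with 3 tested features, the difference between arms ranged by a median of 0.68 log2 from the lowest to the highest feature of a gene. The range was 0.81 for Cbx6, which 38.4% of these genes reached, and 0.51 for Phc1, which 66.1% reached. Averaged over features, Bmi1 read 0.29 (SE 0.29), Cbx8 0.31 (SE 0.29) and Cbx2 -0.16 (SE 0.30), and limma's adjusted p was 0.878 or above for each of them.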
